A study of Mus musculus with 6 samples.

Results

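The globin genes are described here in fetal liver progenitors of the mouse. The members were the 7 genes whose identifiers map to the embryonic genes Hba-x, Hbb-y and Hbb-bh1 or to the adult genes Hba-a1 and Hba-a2 of the alpha cluster and Hbb-bs and Hbb-bt of the beta cluster, and all 7 of 7 were found among the 24815 genes of the deposited tables. The libraries fall into 2 groups of 3. Mutants C, D and Q carry the -77-/- genotype, a homozygous deletion of an enhancer that lies upstream of Gata2, and wild type A, F and L carry both copies. All were common myeloid progenitors (CMPs) of the C57BL/6 strain, sorted from E13.5 fetal liver. The gate kept lineage-negative cells (CD41, CD48 and TER-119 among the stained markers) that were CD34+, FcRlow, c-kit+ and Sca-1-. The labels do not say whether libraries came from separate animals or litters, so the p-values below measure the spread between these libraries, which may be technical.

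Hemoglobin is a tetramer of a pair of alpha-type and a pair of beta-type chains, each holding heme. In the mouse, primitive red cells made in the yolk sac use the embryonic chains zeta (Hba-x), epsilon-y (Hbb-y) and beta-h1 (Hbb-bh1). Definitive red cells, made in the fetal liver and later in the bone marrow, use the adult alpha chains (Hba-a1, Hba-a2) and the adult beta chains (Hbb-bs, Hbb-bt in this strain). The adult chains are not thereby specific to definitive cells. Distal enhancers drive each cluster through erythroid factors such as GATA1, KLF1 and the TAL1 complex. CMPs stand before the erythroid branch. In bulk RNA, fewer cells of a type and less RNA per cell cannot be told apart.

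By GENCODE M21 on GRCm38, the alpha-type genes lie on the plus strand of chromosome 11, Hba-x at chr11:32276400-32278116, Hba-a1 at chr11:32283511-32284465 and Hba-a2 at chr11:32296489-32297298. The beta-type genes lie on the minus strand of chromosome 7, with Hbb-y at chr7:103851749-103853216, Hbb-bh1 at chr7:103841637-103843164, Hbb-bs at chr7:103826534-103828096 and Hbb-bt at chr7:103812524-103813996. None of these spans overlaps another of them.

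How alike the copies are decides which values can be kept apart, so a 41-base coding stretch of each gene is shown around the only coding base that differs between the adult copies. For the alpha-type genes it runs from coding base 361 to 401, with capitals where a base differs from Hba-a2.
Hba-x: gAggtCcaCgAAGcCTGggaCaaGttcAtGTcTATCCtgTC
Hba-a1: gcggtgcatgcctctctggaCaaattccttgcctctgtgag
Hba-a2: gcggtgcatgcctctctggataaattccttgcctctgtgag
For the beta-type genes it runs from coding base 397 to 437, with capitals where a base differs from Hbb-bs.
Hbb-y: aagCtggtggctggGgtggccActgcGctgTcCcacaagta
Hbb-bh1: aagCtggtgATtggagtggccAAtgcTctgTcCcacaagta
Hbb-bt: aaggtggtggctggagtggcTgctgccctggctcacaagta
Hbb-bs: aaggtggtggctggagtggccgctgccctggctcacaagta

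Over the whole coding sequence, Hba-a1 and Hba-a2 differ by C381T and Hbb-bs and Hbb-bt by C417T, each at position 3 of its codon, counted from base 1 of the start codon with the first-named gene's base first. The embryonic genes are far from their adult relatives: Hba-x shared 61.8% of coding bases with Hba-a2, Hbb-y 74.3% with Hbb-bs and Hbb-bh1 74.1% with Hbb-bs. Of all 50-base stretches of 1 GENCODE transcript per gene, 100% were unique within the family for each embryonic gene. For Hbb-bs the transcript used had 628 bases, while its deposited lengths were 771 to 778 bases. The unique share was 32.5% for Hba-a1, 13.1% for Hba-a2, 34.2% for Hbb-bs and 41.7% for Hbb-bt. Reads from the other stretches were divided by RSEM's estimate, and the expected counts of these 4 genes were not whole in 6 of 6 libraries. How an adult pair divides is therefore less certain than its sum, whereas Hba-x and Hbb-y had whole counts throughout and Hbb-bh1 in all libraries but wild type A.

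In these libraries, total expected counts were between 14473913 and 30596279. Gata2, whose enhancer was deleted, had 8.92, 16.5 and 17.8 CPM (counts scaled to library size with TMM factors) in mutants C, D and Q, against 78.6, 57.4 and 63.9 CPM in wild type A, F and L. The groups did not overlap, with a log2 change of -2.20 (adjusted p = 0.068) in edgeR's quasi-likelihood test of all 6 libraries and -1.97 (adjusted p = 0.0019) without mutant C. Of the gate's markers, Kit was at 102, 292 and 270 CPM in mutants C, D and Q and 317 to 337 CPM in wild type. Cd34 was at 1254, 998 and 1024 CPM in the mutants and 685 to 862 CPM in wild type. Ly6a (Sca-1) was at 0.437 to 3.08 CPM over all libraries, and the T cell marker Cd3e at 0 throughout. Cd48, a marker the gate depleted, was at 446 CPM in mutant C and 90.1 to 150 CPM in the other 5, and Fcgr3, of the FcRlow gate, at 77.1 CPM in mutant C and 24.3 to 31.8 CPM in the other 5. Mutant C stood apart from the other libraries. Its TMM factor was 0.614, against 1.06 to 1.17 in the rest, and the mean length of its genes, each weighted by its counts, came to 1781 bases against 2834 to 3124 bases. CPM and the authors' TPM place mutant C differently. TPM corrects for transcript length and was used as deposited, without TMM factors, so the scales differ in both respects. Globin levels are therefore given on both scales and tests with and without this library.

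The embryonic genes formed a larger share of globin transcripts in all 3 mutant libraries than in any wild-type library, and this share does not depend on how libraries are scaled to each other. Of the embryonic genes, Hbb-y alone separated the groups, while Hba-x and Hbb-bh1, at 2 to 38 counts a library, overlapped. In mutants D and Q the embryonic sum averaged 1.83 times wild type in CPM and the adult sum 0.490 times, so both entered the share. The 4 adult genes were below every wild-type library in mutants D and Q on both scales, but not in mutant C. No globin gene passed the adjusted threshold in any fit.

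Hbb-y, the embryonic epsilon-y chain, had 197, 65 and 77 expected counts in mutants C, D and Q, against 45, 6 and 14 in wild type A, F and L. As CPM this was 21.7, 3.11 and 2.39 CPM in the mutants and 1.79, 0.378 and 0.829 CPM in wild type. On the length-corrected scale it was 22.3, 9.35 and 6.42 TPM in the mutants and 6.12, 1.15 and 2.46 TPM in wild type. Every mutant library was above every wild-type library on both scales, although in TPM mutant Q and wild type A were close. Hbb-y was the only 1 of the 5 members tested in all 6 libraries whose groups did not overlap. Across all genes tested, such separation with the mutant higher was found for 10.6% in CPM and for 1.82% in TPM.

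The log2 change of Hbb-y was 3.07 (SE 1.04) by edgeR with all 6 libraries, where its adjusted p (Benjamini-Hochberg, over all genes) was 0.58. Without mutant C it was 1.37 (SE 0.52), with an adjusted p of 0.44, so the fitted log2 change was less than 0.5 times that of all 6 libraries. DESeq2, with all 6 libraries, gave 3.20 (SE 0.90) and an adjusted p of 0.053, the smallest of any globin gene under any setting. Of all genes, 0.155% passed the adjusted threshold in the edgeR fit of the 6 libraries, 0.84% without mutant C, 0.674% by DESeq2 and 0.262% by limma-voom; the share at an unadjusted p under 0.05 was 4.8% in the edgeR fit of the 6 and 10.4% without mutant C.

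Hbb-bh1, the other embryonic beta-type chain, had 38, 7 and 16 expected counts in mutants C, D and Q, against 6.9, 22 and 5 in wild type A, F and L. Wild type F lay above mutants D and Q, and the groups overlapped on both scales, with 4.64, 1.09 and 1.44 TPM in the mutants and 1.02, 4.55 and 0.95 TPM in wild type. Hba-x, the embryonic alpha-type chain, had 7, 6 and 8 expected counts in the mutants, against 9, 3 and 2 in wild type. These levels were 0.54 to 0.71 TPM in the mutants and 0.29 to 1 TPM in wild type, so the groups overlapped here too. Neither gene passed the filter on low counts in the edgeR fit of all 6 libraries. Without that filter, edgeR gave log2 changes of 1.21 (SE 1.06) for Hbb-bh1 and 0.75 (SE 0.70) for Hba-x, each at an adjusted p of 0.64, and without mutant C, where Hbb-bh1 passed the filter, its log2 change was -0.56 (SE 0.76, adjusted p = 0.81). At these counts no difference between the groups was detectable for either gene.

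**Figure D1:**
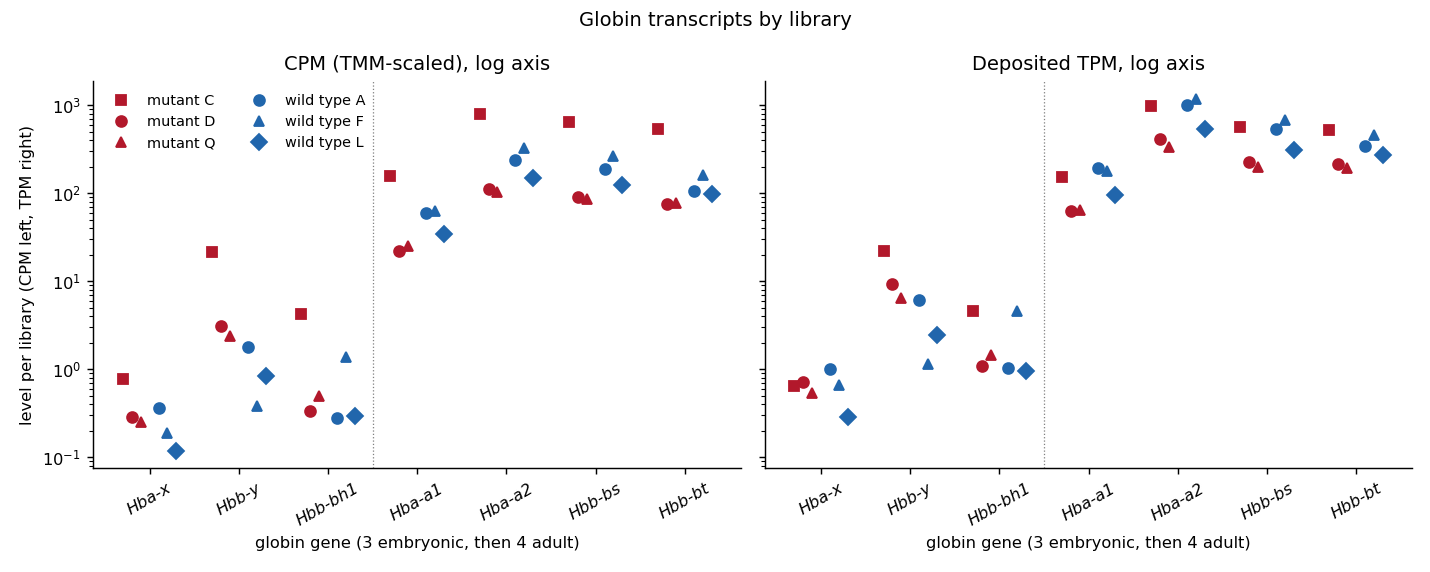
Level of each globin gene in each library, as CPM with TMM scaling (left) and as the deposited TPM (right), both on log axes; red symbols are mutants C, D and Q and blue symbols wild type A, F and L, with the 3 embryonic genes left of the dotted line. Mutants D and Q lie below all wild-type libraries for the 4 adult genes in both panels, mutant C lies above all of them for the 4 adult genes in CPM and for Hbb-bt alone in TPM, and Hbb-y is higher in every mutant library than in any wild-type library.

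Hba-a2 was the most abundant globin in every library, with 982, 408 and 332 TPM in mutants C, D and Q, against 991, 1185 and 537 TPM in wild type A, F and L. Its copy Hba-a1, which encodes the adult alpha chain as well, had 153, 63.0 and 64.1 TPM in the mutants and 191, 178 and 95.5 TPM in wild type. In mutants D and Q both genes were below all 3 wild-type libraries, and mutant C lay within the wild-type range. The CPM scale kept D and Q below but placed mutant C far above: Hba-a2 was at 793, 112 and 102 CPM in the mutants and at 240, 324 and 150 CPM in wild type, and Hba-a1 at 158, 22.2 and 25.3 CPM in the mutants and at 59.3, 62.4 and 34.1 CPM in wild type.

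Hbb-bs, an adult beta chain, had 566, 227 and 197 TPM in mutants C, D and Q, against 539, 678 and 310 TPM in wild type A, F and L. Hbb-bt, the other adult beta chain, had 522, 215 and 193 TPM in the mutants, against 342, 453 and 274 TPM in wild type. Both followed the alpha chains, with D and Q lowest of the 6 libraries, except that Hbb-bt in mutant C exceeded all wild-type libraries in TPM as well. In CPM, Hbb-bs was at 649, 89.4 and 86.9 in the mutants and at 187, 265 and 124 in wild type, and Hbb-bt at 542, 76.1 and 76.6 in the mutants and at 107, 160 and 98.5 in wild type.

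Summed, the 4 adult genes gave 2223, 912 and 787 TPM in mutants C, D and Q, against 2063, 2494 and 1217 TPM in wild type A, F and L. The mean of D and Q was 0.441 times the wild-type mean in TPM and 0.490 times in CPM. All 7 globins together took 0.133% of the expected counts of mutant C and 0.0332% and 0.0310% of mutants D and Q, against 0.0696%, 0.0891% and 0.0448% in wild type A, F and L. The family thus held its largest count share in mutant C and its smallest in the other mutants, and the groups overlapped in all 3 units. The mean sum of all 7 was 1323 ± 806 TPM in the mutants and 1931 ± 652 TPM in wild type (SD, n = 3 each).

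With all 6 libraries, edgeR gave positive log2 changes with wide errors for the adult genes: 0.39 (SE 0.79, adjusted p = 0.78) for Hba-a1, 0.50 (SE 0.84, adjusted p = 0.74) for Hba-a2, 0.52 (SE 0.83, adjusted p = 0.73) for Hbb-bs and 0.93 (SE 0.81, adjusted p = 0.60) for Hbb-bt. Without mutant C the sign turned for all 4, with log2 changes of -1.14 (SE 0.24, adjusted p = 0.13), -1.16 (SE 0.28, adjusted p = 0.19), -1.13 (SE 0.28, adjusted p = 0.19) and -0.68 (SE 0.20, adjusted p = 0.27) in the same order. With all 6 libraries the sign also depended on the tool and the unit. limma-voom gave -0.17 for Hba-a1, -0.054 for Hba-a2, -0.065 for Hbb-bs and 0.32 for Hbb-bt, and limma on log2(TPM + 1) gave -0.79, -0.75, -0.72 and -0.32, where the median over all genes was -0.50. No direction for the adult globins in the whole mutant group therefore held across libraries, tools and units. Of the adult genes, 0 of 4 passed the adjusted threshold in either edgeR fit, and none did by DESeq2 or limma-voom with all 6. The number at an unadjusted p under 0.05 was 0 with all 6 libraries and 4, all lower in the mutant, without mutant C, where 6.02% of all genes were lower at that level and 0.84% passed the adjusted threshold.

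All 4 adult genes in mutants D and Q stood below every wild-type library, a separation that 14.6% of all genes tested without mutant C had in CPM and 24.8% in TPM. Because reads can move between near-identical copies, each adult pair was also summed before the fit. The summed alpha pair had a log2 change of 0.48 (SE 0.83) with all 6 libraries and -1.15 (SE 0.27, adjusted p = 0.17) without mutant C. The summed beta pair had 0.69 (SE 0.82) and, without mutant C, -0.94 (SE 0.24, adjusted p = 0.21). Summing therefore left the pattern of the single genes in place.

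**Figure D2:**
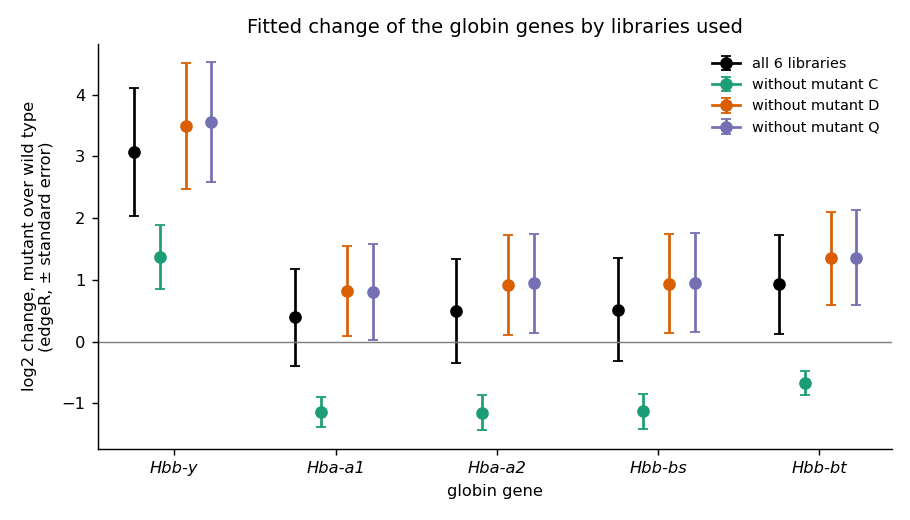
Log2 change, mutant over wild type, of the 5 globin genes that passed the filter on low counts, from edgeR with all 6 libraries (black) and without each mutant library in turn; bars are ± 1 standard error. The 4 adult genes are below 0 only without mutant C, at -1.16 to -0.68, while Hbb-y is above 0 in all 4 fits, at 1.37 to 3.56.

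Shares within the family avoid the scaling between libraries, since each is a ratio inside 1 library. The 3 embryonic genes made up 1.23%, 1.23% and 1.06% of the 7 genes' expected counts in mutants C, D and Q, against 0.407%, 0.240% and 0.305% in wild type A, F and L. The exact binomial 95% intervals (Clopper-Pearson, counting error only) ran from 0.867% to 1.53% over the mutants and from 0.163% to 0.523% over wild type, so they did not meet. The mean share was 1.17 ± 0.09% in the mutants and 0.317 ± 0.084% in wild type (SD, n = 3 each), 3.70 times as large in the mutants. From TPM the shares were 1.16 ± 0.09% in the mutants and 0.317 ± 0.070% in wild type. Mutant C, which stood apart in levels, had the same embryonic share as mutant D.

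Among the embryonic genes, Hbb-y alone separated the groups, and in mutants D and Q the share rests on the lower adult sum as well. Hbb-y made up 1.78%, 1.84% and 1.43% of beta-type expected counts in mutants C, D and Q, against 0.605%, 0.0887% and 0.371% in wild type A, F and L, with no overlap between the groups. Hbb-bh1 made up 0.198% to 0.344% in the mutants and 0.0928% to 0.325% in wild type, and Hba-x made up 0.0810% to 0.213% of alpha-type counts in the mutants and 0.0490% to 0.119% in wild type. Both of these ranges overlapped. Among the 3 embryonic genes, Hbb-y held 76.2% to 83.3% of counts in the mutants and 19.4% to 73.9% in wild type, where the lowest value was that of wild type F, with 6 counts of Hbb-y and 22 of Hbb-bh1.

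Adult transcripts exceeded embryonic ones 80.7-, 81.8- and 93.6-fold in TPM in mutants C, D and Q, and 253-, 392- and 329-fold in wild type A, F and L. Adult genes were thus dominant in both groups. The order of TPM was Hba-a2, Hbb-bs, Hbb-bt, Hba-a1, Hbb-y, Hbb-bh1 and Hba-x in 5 of the 6 libraries, and wild type F differed in having Hbb-bh1 above Hbb-y. Hbb-bs and Hbb-bt were close neighbours in the mutants, where their TPM ratio was 1.02 to 1.08, against 1.13 to 1.58 in wild type.

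**Figure D3:**
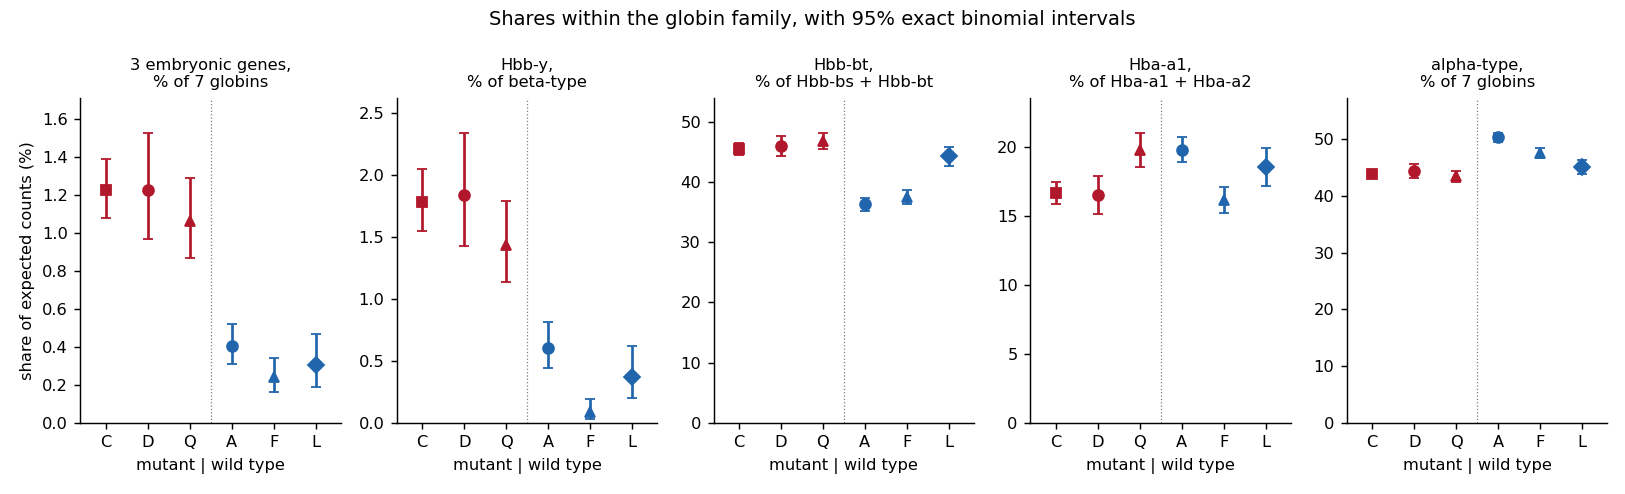
Shares of expected counts within each library (percent, axes from 0), with exact binomial 95% intervals; mutants C, D and Q are red and left of the dotted line, wild type A, F and L blue. The embryonic share lies at 1.06% to 1.23% in the mutants and 0.240% to 0.407% in wild type with intervals that do not meet, while the Hba-a1 share overlaps.

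The division of the adult beta pair separated the groups narrowly. Hbb-bt took 45.5%, 46.0% and 46.9% of the counts of Hbb-bs and Hbb-bt in mutants C, D and Q, against 36.3%, 37.6% and 44.3% in wild type A, F and L. The groups did not overlap, but wild type L was close: its 95% interval of 42.7% to 45.9% met those of all 3 mutants, which began at 44.6% in C, 44.3% in D and 45.5% in Q. Hba-a1 took 16.6%, 16.5% and 19.8% of the adult alpha pair in the mutants, against 19.8%, 16.2% and 18.5% in wild type, and these overlapped. Both values rest on RSEM's division of shared reads.

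Alpha-type genes made up 50.5%, 51.1% and 49.95% of the family's TPM in mutants C, D and Q, against 57.1%, 54.5% and 51.8% in wild type A, F and L. The mean was 50.5 ± 0.6% in the mutants and 54.5 ± 2.7% in wild type (SD, n = 3 each), with no overlap and wild type L again nearest to the mutants. By counts, where the alpha-type share was 43.9%, 44.4% and 43.5% in the mutants and 50.3%, 47.5% and 45.1% in wild type, the interval of wild type L (43.9% to 46.3%) met those of all 3 mutants, which ended at 44.6% in C, 45.6% in D and 44.5% in Q.

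The remaining members of the globin fold were nearly silent. Hbb-bh2, a further gene of the beta cluster, and Mb, which encodes the muscle oxygen store myoglobin, were at 0 counts in all 6 libraries, which allows up to 3 counts of each total. Hbq1b, a theta-globin gene of the alpha cluster, had 2, 1 and 5 counts in mutants C, D and Q and 5, 9 and 6 in wild type A, F and L, and its relative Hbq1a had 1 count, in mutant C. Cygb (cytoglobin) had 1 count in mutant D and 2 in wild type L, and Ngb (neuroglobin) 2 in wild type A and 1 in wild type L. Adgb (androglobin), with 2, 16 and 16 counts in the mutants and 15, 12 and 4 in wild type, was the only 1 of the 7 to be tested, with a log2 change of -0.01 (SE 0.57). At these counts no difference between groups was detectable.

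The promoters of Hba-a2 and Hbb-y are shown as an adult and an embryonic example, chosen because all but a few bases of the window lie outside annotated exons. They are the 130 bases before the RefSeq start on GRCm38.p6, at chr11:32296362-32296491 (plus strand) and chr7:103853208-103853337 (minus strand), with motif matches in capitals. The motifs searched were CACCC (the box that KLF factors bind), GATAA (bound by GATA factors), CCAAT (the box of NF-Y) and TATAA (the core TATA box).
Hba-a2: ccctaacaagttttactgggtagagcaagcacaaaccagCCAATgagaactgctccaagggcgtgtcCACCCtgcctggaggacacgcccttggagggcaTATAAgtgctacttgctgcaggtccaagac
Hbb-y: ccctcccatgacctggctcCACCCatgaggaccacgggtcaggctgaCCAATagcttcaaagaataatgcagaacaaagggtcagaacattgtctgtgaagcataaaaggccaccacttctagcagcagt
RefSeq's table held a promoter for 6 of the 7 genes, all but Hbb-bh1. Over the 250 bases before the start, on either strand, all 4 motifs were present in each of the 4 adult genes, a combination found in 0.969% of 32817 promoters of the same length. Hba-x held all of them but CCAAT, and Hbb-y all but TATAA. Singly the motifs are common, with CACCC found in 52.0% of promoters and CCAAT found in 33.8% of them. TATAA was present in 22.8% and GATAA was present in 22.6%. Hba-a1 and Hba-a2 are no separate examples, because their promoters share an unbroken run of 247 bases. A match is a description of the letters and says nothing of binding.

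Of 15 genes for globin gene activators and looping factors tested, 4 fell without mutant C while the fit of all 6 called 0 (5 below 0.05 before adjustment). DESeq2 called the same 4 with all 6 libraries, and limma-voom called Gata1 alone. Over all genes, edgeR called 0.84% without mutant C and 0.155% with all 6 libraries, where 4.8% were below 0.05 before adjustment. DESeq2 called 0.674% of all genes and limma-voom 0.262%. Gata1, the main erythroid GATA factor, had 2.86, 0.813 and 1.18 CPM in mutants C, D and Q, against 29.6, 20.2 and 24.5 CPM in wild type A, F and L. Klf1, the erythroid factor that binds CACCC boxes of the adult beta genes, had 2.42, 1.1 and 0.837 CPM in the mutants and 8.99, 6.81 and 6.99 CPM in wild type. Zfpm1, the GATA cofactor FOG1, had 8.37, 16.5 and 17.3 CPM in the mutants and 59.8, 44.7 and 44.0 CPM in wild type. These 3 and Gata2 were lower in every mutant library, mutant C included, with log2 changes without mutant C of -4.61 for Gata1, -3.0 for Klf1 and -1.56 for Zfpm1 (edgeR adjusted p = 0.00066, 0.0035 and 0.0059). The median over the list was -0.34 with all 6 libraries and -0.11 without mutant C, beside -0.02 and -0.01 over all genes tested.

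Among 17 regulators of globin switching that were tested, 2 fell without mutant C by edgeR, and 0 fell with all 6 libraries (2 at an unadjusted p under 0.05, and Sox6 called by DESeq2, none by limma-voom). Sox6, a repressor of embryonic epsilon-y in the mouse, had 0.661, 0.860 and 0.744 CPM in mutants C, D and Q, against 3.30, 4.86 and 3.32 CPM in wild type A, F and L. Its log2 change was -2.31 (adjusted p = 0.054) with all 6 libraries and -2.26 (adjusted p = 0.022) without mutant C in edgeR's test. Myb, a progenitor factor, had 159, 257 and 260 CPM in the mutants and 399, 371 and 378 CPM in wild type, with a log2 change of -0.57 without mutant C (adjusted p = 0.020). The other 15, among them Bcl11a and Zbtb7a, did not pass the adjusted threshold by edgeR in either fit. Without mutant C, 3 of the 17 had an unadjusted p under 0.05, which were Sox6, Myb and Bcl11a (log2 change -0.25). Both Bcl11a and Zbtb7a, which the naming rule does not cover, were picked once their values had been seen. The list's median was -0.24 with all 6 libraries and 0.02 without mutant C. Beside this list, 4.8% of all genes had an unadjusted edgeR p under 0.05 with all 6 libraries and 10.4% without mutant C. After adjustment, 0.155% and 0.84% passed.

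Of 16 genes of heme synthesis and globin balance, edgeR called 0 in either fit, and DESeq2 and limma-voom called 0 as well. Before adjustment, 1 was below 0.05 with all 6 libraries and 7 without mutant C, beside 4.8% and 10.4% of all genes. The smallest p-values with all 6 libraries were those of Hmox1, which encodes heme oxygenase, with 12.9, 6.69 and 8.37 CPM in mutants C, D and Q and 4.60 to 5.33 CPM in wild type, and of Cpox, an enzyme of heme synthesis, with 20.8, 40.3 and 37.6 CPM in the mutants and 46.2 to 54.6 CPM in wild type. The list's median log2 change was -0.03 with all 6 libraries and -0.17 without mutant C.

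The summed level of erythroblast markers was lower in all 3 mutant libraries, mutant C included, than in any wild-type library. Of 30 tested, 4 fell with all 6 libraries by edgeR and 8 without mutant C, with a median log2 change of -0.76 and -1.15. Over all genes tested, 0.155% and 0.84% passed in these fits, with medians of -0.02 and -0.01. Slc14a1, the urea transporter, had 3.96, 2.77 and 2.42 CPM in mutants C, D and Q, against 17.6, 17.2 and 16.0 CPM in wild type A, F and L (log2 change -2.50, edgeR adjusted p = 0.032). Epor, the erythropoietin receptor, had 0.661, 0.478 and 0.651 CPM in the mutants and 6.60, 3.97 and 4.26 CPM in wild type (log2 change -3.05, edgeR adjusted p = 0.044). Aqp1, a water channel, and Hemgn, a nuclear protein of erythroid cells, also fell, with log2 changes of -1.73 and -1.44 (edgeR adjusted p = 0.045 each). Without mutant C, Rhag, Ermap, Car1 and Car2 fell as well. Car1, a carbonic anhydrase gene, had 0.220, 0 and 0 CPM in the mutants and 5.17, 4.22 and 7.22 CPM in wild type, while Car2 was at 103 CPM in mutant C, 40.0 and 46.1 CPM in D and Q, and 70.0 to 88.5 CPM in wild type.

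The summed level of the 30 erythroblast markers was 622, 725 and 707 CPM in mutants C, D and Q, against 951, 966 and 881 CPM in wild type A, F and L, and it was lower in the mutants in TPM too, with 29 or 30 of the 30 above 0 counts in each library. The ratio of adult globin CPM to this sum was 0.414 and 0.412 in mutants D and Q, against 0.623, 0.840 and 0.461 in wild type, and it was 3.45 in mutant C. In D and Q, therefore, globins and erythroblast markers were both low, while in mutant C the markers were low and the globins were not. From TPM the ratio was 14.7 in mutant C and 2.54 in both other mutants, against 3.61, 4.75 and 2.55 in wild type, so that wild type L hardly differed from D and Q. The part of these marker levels in the globin values was not tested.

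**Figure D4:**
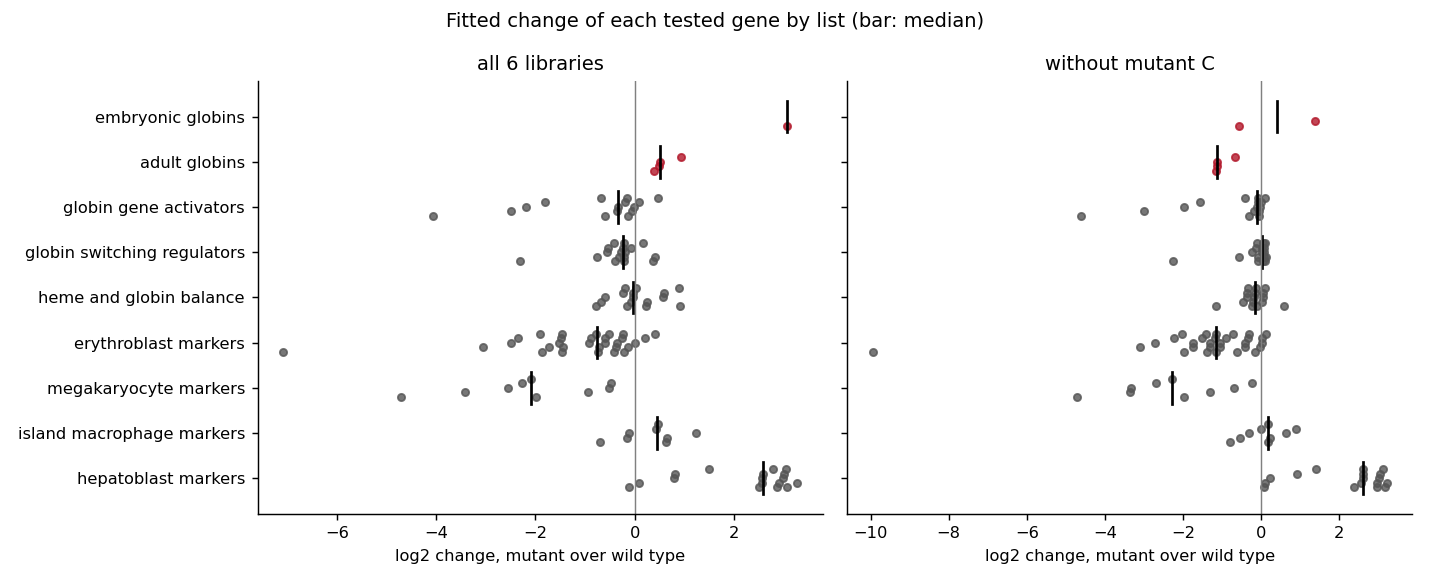
Log2 change, mutant over wild type, of each tested gene by list, from edgeR with all 6 libraries (left) and without mutant C (right, with its own axis range); black bars are medians and globin genes are red. The adult globins have a median of 0.51 at left and -1.13 at right, while erythroblast markers are below 0 in both (-0.76 and -1.15); the lowest erythroblast marker is Car1, at 0 counts in mutants D and Q, whose fitted value depends on the prior count.

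Markers of other cells of the fetal liver also differed between libraries. Of 17 hepatoblast markers, 0 passed by edgeR in either fit (11 and 13 at an unadjusted p under 0.05), 0 by limma-voom and 6 by DESeq2, with a median log2 change of 2.59 with all 6 libraries and 2.60 without mutant C. For all genes tested the medians were -0.02 and -0.01, 4.8% and 10.4% had such a p, and DESeq2 called 0.674%. Their summed level was 279, 138 and 693 CPM in mutants C, D and Q, against 146, 108 and 81.8 CPM in wild type A, F and L. In TPM it was 129, 157 and 657 in the mutants and 196, 126 and 97.2 in wild type, so that mutants C and D lay within the wild-type range and mutant Q above it. Afp, the fetal liver secreted protein, had 64.4, 30.3 and 237 CPM in the mutants and 4.62 to 26.5 CPM in wild type, and Alb (albumin) had 60.8, 23.2 and 217 CPM in the mutants and 3.32 to 26.8 CPM in wild type. Apoa2 was at 17.0, 1.72 and 10.1 CPM in the mutants and 0.651 to 1.59 CPM in wild type, and Krt8 at 2.42, 1.15 and 2.70 CPM in the mutants and 0.474 to 0.883 CPM in wild type. Dlk1 overlapped between the groups, at 21.9, 32.8 and 42.0 CPM in the mutants and 32.4 to 39.0 CPM in wild type. The summed CPM was highest in mutant Q, where adult globins were low, although Apoa2 was highest in mutant C, and all 17 were above 0 counts in every library. Their part in the globin values was not tested.

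The 13 markers of erythroblastic island macrophages summed to 106, 51.8 and 51.3 CPM in mutants C, D and Q, against 52.2, 49.0 and 49.1 CPM in wild type A, F and L, so mutant C had the highest CPM of both these markers and the globins. In TPM the order was other, with 49.8, 64.1 and 53.9 in the mutants and 68.6, 59.0 and 61.4 in wild type, and mutant C was lowest. Of the 8 tested with all 6 libraries 0 passed by edgeR, 0 by limma-voom and, with 13 tested, 0 by DESeq2, with 0 at an unadjusted edgeR p under 0.05. Without mutant C, edgeR tested 9, of which 0 passed and 2 had an unadjusted p under 0.05, beside 10.4% of all genes. Dnase2a, the nuclease that digests expelled nuclei, was at 62.4 CPM in mutant C and 21.5 to 25.3 CPM in the other 5 libraries, Cd68 was at 16.3 and 7.57 to 9.99 CPM, and Adgre1 (F4/80) at 9.36 and 5.04 to 6.93 CPM. Spic, an island macrophage factor, had 3.74, 2.15 and 3.75 CPM in the mutants and 4.10 to 7.0 CPM in wild type. The part of these cells in the globin level of mutant C was not tested.

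Of 9 megakaryocyte markers tested, 3 fell with all 6 libraries by edgeR (Itga2b, Gp5 and Treml1) and 6 without mutant C, with Itgb3, Gp1ba and Vwf added. Over all genes tested, 0.155% and 0.84% passed in these fits. With all 6 libraries, DESeq2 called 5 of 12 markers and limma-voom 4 of 9, beside 0.674% and 0.262% of all genes. The list's median log2 change by edgeR was -2.09 with all 6 libraries and -2.29 without mutant C, beside -0.02 and -0.01 over all genes tested. Itga2b, which encodes the CD41 of the gate, had 7.82, 7.94 and 8.12 CPM in mutants C, D and Q, against 37.4, 26.2 and 30.7 CPM in wild type A, F and L. The summed level of the list was 59.1, 94.4 and 91.4 CPM in the mutants, against 159, 153 and 159 CPM in wild type.

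No gene listed as a neighbour of the globin clusters passed the threshold. Of 7 neighbours of the alpha cluster and 8 of the beta cluster tested, 0 passed in either edgeR fit, by DESeq2 or by limma-voom, with 1 alpha neighbour and 0 beta neighbours at an unadjusted p under 0.05 in all 6 libraries. Without mutant C, 2 alpha neighbours and 0 beta neighbours were at that level by edgeR. The shares of all genes were 4.8% and 10.4% in these fits. Il9r, a cytokine receptor gene, had 1.43, 1.91 and 2.29 CPM in mutants C, D and Q and 2.78 to 3.62 CPM in wild type. Snrnp25, a spliceosome gene, had 160 CPM in mutant C and 34.4 and 40.9 CPM in D and Q, against 25.7 to 33.2 CPM in wild type. For the beta cluster list, Usp47, a ubiquitin peptidase gene that in fact lies 8.17 megabases away, was at 86.9, 152 and 138 CPM in the mutants and 149 to 153 CPM in wild type, and Rhog at 91.3, 74.5 and 77.8 CPM in the mutants and 70.4 to 74.9 CPM in wild type. The alpha list also held Polr3k, which lies on chromosome 2. The median log2 changes with all 6 libraries were -0.07 for the alpha and 0.08 for the beta list, or -0.08 and 0.09 over the genes within 2 megabases of the cluster, beside the -0.02 of all genes.

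The genes whose log2 CPM followed the summed adult globins most closely over the 6 libraries were Neil1, Cenpo, Kdelr1, Tmco6 and Ermard, with Pearson's r of 0.978 to 0.996 and Spearman's rho of 0.83 to 1. Neil1, a DNA repair glycosylase gene, had 5.73, 3.06 and 3.04 CPM in mutants C, D and Q and 3.78, 4.22 and 3.55 CPM in wild type A, F and L. For the summed embryonic globins they were Ptger3, Psen2, Rpusd1, Dus4l and Spp1, with r of 0.991 to 0.997 and rho of 0.94 to 1. Ptger3, a prostaglandin receptor gene, had 18.4, 12.9 and 12.2 CPM in the mutants and at most 11.4 CPM in wild type. Mutant C was the highest library for all 10 genes. They were picked as the highest of the correlations of all tested genes, over 6 points of which that library is 1, so they are a description of these libraries.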

How the data were processed

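RNA-seq of 6 sorted progenitor libraries was used, in 2 groups of 3. Per the submitters' processing notes, CASAVA 1.8.2, Bowtie 1.1.1 and RSEM 1.2.18 were used with the mm10 build; the read length, the strandedness and the annotation are not given in the sources used. The authors deposited RSEM expected counts per gene, which are estimates that need not be whole, and TPM per gene, which divides by transcript length. The deposited effective lengths equal the transcript lengths in all 6 tables.

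Symbols were matched by Ensembl identifier (24448 of 24815). Expected counts were rounded to whole numbers and tested over all genes with edgeR 4.0.16 (quasi-likelihood F test, filterByExpr with a minimum count of 10, TMM factors, Benjamini-Hochberg adjustment, threshold 0.05) in R 4.3.3, on the group alone. DESeq2 1.42.0, limma 3.58.1 (voom, and log2(TPM + 1) and log2(TPM + 0.1)), other scalings, no filter and leaving out each library were alternatives. The edgeR test gives no standard error, so each edgeR SE is the absolute log2 change divided by the square root of its F statistic. Libraries of a group differed by far more than sampling noise (chi-square per gene 9.25 to 405). Intervals and zero counts reflect counting error only.

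Named were the 7 globins, other globin-fold genes with a count, Gata2, list members past the threshold in either edgeR fit or else the 2 with the smallest p, the 3 highest markers of each other cell type, and the 5 genes most correlated with each globin sum (log2 CPM, prior count 2). A gene that this rule names is not reported here. The members and the lists (globin activators, switching regulators, heme and globin balance, cluster neighbours, and erythroblast, hepatoblast, macrophage and megakaryocyte markers) were chosen with earlier results of these data known. The list symbols Ahsp, Eraf and Hbb-bh0 matched nothing in the tables. Transcripts and positions are from GENCODE M21 and promoters from RefSeq, both on GRCm38.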

Additional observations from a re-analysis of the deposited data

How the results depend on the processing

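The embryonic and alpha-type shares moved by less than 1 SD under every alternative run. Hbb-y was above 0 in all 13 alternatives, with log2 changes of 1.37 to 3.84, and passed the adjusted threshold in none (adjusted p 0.053 to 0.84). The adult genes changed sign without mutant C and under other units; the cause was not tested. Leaving out single libraries gave -1.14 to 0.82 for Hba-a1, -1.16 to 0.94 for Hba-a2, -1.13 to 0.95 for Hbb-bs, -0.68 to 1.36 for Hbb-bt, -1.15 to 0.92 for the summed alpha pair and -0.94 to 1.13 for the summed beta pair. limma-voom gave -0.17 for Hba-a1, -0.054 for Hba-a2, -0.065 for Hbb-bs and -0.022 for the alpha pair. limma on log2(TPM + 1) gave -0.79 for Hba-a1, -0.75 for Hba-a2, -0.72 for Hbb-bs and -0.32 for Hbb-bt, and on log2(TPM + 0.1) -0.80, -0.75, -0.72 and -0.32, while the median over all genes was -0.50 and -0.63 there. The summed TPM of the 7 globins differed by -608 between the group means and by 317 in CPM, with -1071 to -323 TPM without single libraries. The number of genes past the threshold, 19 in the edgeR fit of all 6, was 36 without the filter, 124 by DESeq2, 32 by limma-voom, 11 by limma on log2(TPM + 0.1), and 0 to 106 without single libraries, where 294 to 1611 had an unadjusted p under 0.05. Hba-x and Hbb-bh1 could not be tested in the filtered fit of all 6. No paired analysis was possible because the replicate letters are not shared between the groups.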
